A study of Mus musculus with 503 samples.

Results

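Transcription factors of the mural and meningeal lineages were examined as a set of 10 genes, chosen by symbol: the forkhead genes *Foxf2*, *Foxs1*, *Foxc1*, *Foxc2*, *Foxd1* and *Foxp2*, the T-box genes *Tbx18* and *Tbx15*, the zinc-finger gene *Zic1* and the early B-cell factor gene *Ebf1*. All 10 had a row among the 56701 gene rows of the count table. Another 57 genes of the Fox, Tbx, Zic and Ebf families served as the family for comparison. The levels were measured in single perivascular cells of adult mice, female by the labels though the study's methods name both sexes for sequencing, that carried GLAST-CreERT2, R26R-tdTomato and Pdgfrb-eGFP together. In these mice tamoxifen switches on tdTomato in cells in which the GLAST gene (*Slc1a3*, a glutamate transporter) is active, while EGFP follows *Pdgfrb*, a growth factor receptor gene of pericytes, fibroblasts around vessels and vascular smooth muscle cells (vSMCs). Single EGFP+ cells with tdTomato (tdTomato+EGFP+) and without it (tdTomato-EGFP+) were collected from uninjured spinal cord and from cord 3 days after a complete crush (3d SCI), which gives 4 groups, and were profiled by Smart-seq3, which covers whole transcripts. All cells are EGFP+, so the sorts are called tdTomato+ and tdTomato- from here on. A cell in which recombination failed is sorted as tdTomato-, and the outer meninges were taken off before dissociation, so the sort was not made to hold meningeal cells.

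Forkhead, T-box and Zic proteins are DNA-binding regulators that pattern the mesenchyme around the developing brain and spinal cord, from which mural cells, perivascular fibroblasts and meninges are drawn. *Foxf2* is known for pericyte differentiation in brain vessels, *Foxs1* for expression in mural cells, and *Foxc1* and *Foxc2* for growth of the meninges and of vessel walls. *Foxd1* marks stromal progenitors in several organs, *Tbx18* marks mural cells in adult tissue, *Tbx15* is a regulator of mesenchyme in limb, skin and skeleton, *Zic1* is active in the dorsal neural tube and meninges, and *Ebf1* is a factor of B cells, adipocytes and pericytes. *Foxp2* is best known from neurons.

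RefSeq promoter sequences (GRCm38.p6, the 250 bases before the RefSeq gene start) are given for 3 genes: the chromosomal neighbours *Foxf2* and *Foxc1*, whose levels differed in their pattern over the cells, and *Tbx18*, which split the fibroblast-like cells described below. All are printed 5′ to 3′ on the strand of the gene, in lower case, with capitals marking a GC box (GGGCGG or CCGCCC).
*Foxf2*, chr13:31625566-31625815, plus strand: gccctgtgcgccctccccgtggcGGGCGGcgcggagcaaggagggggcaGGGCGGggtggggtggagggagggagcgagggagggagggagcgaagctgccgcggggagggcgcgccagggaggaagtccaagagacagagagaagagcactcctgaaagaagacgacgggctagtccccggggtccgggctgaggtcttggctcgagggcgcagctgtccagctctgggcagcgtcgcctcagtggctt
*Foxc1*, chr13:31806396-31806645, plus strand: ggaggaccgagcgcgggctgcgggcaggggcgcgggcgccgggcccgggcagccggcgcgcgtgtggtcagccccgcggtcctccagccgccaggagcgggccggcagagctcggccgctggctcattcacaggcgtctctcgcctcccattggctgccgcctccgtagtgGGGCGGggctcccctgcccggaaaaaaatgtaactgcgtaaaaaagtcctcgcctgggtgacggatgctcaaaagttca
*Tbx18*, chr9:87731261-87731510, minus strand: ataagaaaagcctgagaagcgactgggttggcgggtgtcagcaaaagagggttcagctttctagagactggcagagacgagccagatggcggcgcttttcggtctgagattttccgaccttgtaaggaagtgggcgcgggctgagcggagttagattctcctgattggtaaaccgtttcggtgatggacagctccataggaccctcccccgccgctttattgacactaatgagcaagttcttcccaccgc

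The *Foxf2* window was 71.6% G or C and the *Foxc1* window 70.8%, against 54% for *Tbx18* and a median of 52.4% over all 32851 promoter windows of the same length. The promoter table held 7 windows for 6 of the 10 genes (*Foxf2*, *Foxc1*, *Foxd1*, *Tbx18*, *Zic1* and 2 starts of *Ebf1*), and *Foxs1*, *Foxc2*, *Foxp2* and *Tbx15* had no entry. A GC box stood in the windows of *Foxf2*, *Foxc1*, *Foxd1* and *Zic1*, that is in 4 of the 7, and in 32.7% of all windows. On both strands, a forkhead motif (TGTTTAC or GTAAACA, in 3.17% of all windows), a T-box motif (AGGTGTGA or TCACACCT, 1.12%), an EBF motif (TCCC and GGGA with any 2 bases between, 0.779%) and a TATA box (TATAAA, searched on the gene strand alone, 7.59%) had no match in the 7 windows. In the gene annotation of the same build (GRCm38), *Foxf2* lies on chromosome 13 from 31625816 to 31631403 and *Foxc1* from 31806633 to 31812476, both on the plus strand and 175229 bases apart. *Tbx18* lies on chromosome 9 from 87702800 to 87731260 and *Ebf1* on chromosome 11 from 44617317 to 45008091. *Foxc1*, *Foxc2*, *Foxd1* and *Foxs1* are each annotated as a single exon.

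Of 503 sorted cells, 468 were retained. The uninjured cord gave 65 and 72 tdTomato+ cells on plates 209 and 213, and 46 and 60 tdTomato- cells. The injured cord gave 88 and 34 tdTomato+ cells on plates 211 and 215, and 58 and 45 tdTomato- cells. These groups held between 25645409 and 38406035 counts, with medians between 204006 and 271660 counts per cell. A deposited sample is a single cell and no label names an animal. A group therefore counts as 1 sample, and the differences below carry no test, p-value or replicate error. The 4 plates are given as a technical spread. No plate holds cells of both conditions, so injury and plate cannot be told apart, while both sorted populations lie on every plate. The 34 tdTomato+ cells of plate 215 stood apart with a median of 14770 counts, and plate 211 gave 94.6% of the counts of that group. *Slc1a3* was at 211.5 and 206.5 CPM (counts per 1000000 counts) in the tdTomato+ groups and at 31.5 and 10.7 CPM in the tdTomato- groups, and *Pdgfrb* was between 1213 and 2491 CPM in all 4.

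The summed levels of cell type markers shifted with injury, and these values stand beside every injury difference below. The summed level of 9 pericyte markers, all with counts in every group, was 11285 CPM in uninjured and 687 CPM in injured tdTomato+ cells, and 12394 and 11178 CPM in tdTomato- cells. For 8 perivascular fibroblast markers the sums were 4227 and 21983 CPM in tdTomato+ and 2207 and 9575 CPM in tdTomato- cells. The 6 leptomeningeal markers summed to 512.5, 209.7, 848.4 and 653.1 CPM in uninjured tdTomato+, uninjured tdTomato-, injured tdTomato+ and injured tdTomato- cells, and none of the 6 was at 0 in any group. Cycling markers were between 7.03 and 12.9 CPM in the uninjured groups and at 1216 and 674.4 CPM in the injured groups. The 5 endothelial markers, which the sort was not aimed at, summed to 3633 and 3867 CPM in the uninjured and 344.4 and 1456 CPM in the injured groups (tdTomato+ first). In group sums, fewer cells of a type and less RNA per cell cannot be told apart, and the part of these shifts in the differences below was not tested.

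*Ebf1* was lowest in injured tdTomato+ cells. It stood at 471.0 CPM (exact 95% Poisson interval 464.2 to 477.9) in uninjured tdTomato+, 537.0 CPM (528.3 to 545.9) in uninjured tdTomato-, 80.4 CPM (77.3 to 83.6) in injured tdTomato+ and 343.5 CPM (336.4 to 350.8) in injured tdTomato- cells. Injured tdTomato+ cells were the low group on both of their plates, at 80.6 and 76.9 CPM, while the other 3 groups ranged from 341.1 to 574.7 CPM over single plates, so the 2 ranges did not overlap. The median cells stood in the same order, at 413.6, 432.3, 50.9 and 343.4 CPM. On the log2(CPM + 1) scale, injured minus uninjured was -2.54 in tdTomato+ cells (plate pairs from -2.75 to -2.41) and -0.64 in tdTomato- cells (-0.75 to -0.40).

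*Foxf2* was at like levels in both sorts of the uninjured cord, with overlapping plate ranges, and lower after injury in both. Its levels were 86.7 CPM (83.8 to 89.7) in uninjured tdTomato+, 83.2 CPM (79.8 to 86.8) in uninjured tdTomato-, 17.4 CPM (15.9 to 18.9) in injured tdTomato+ and 27.8 CPM (25.8 to 29.96) in injured tdTomato- cells. Over single plates the uninjured values ran from 73.3 to 91.9 CPM and the injured ones from 17.2 to 33.2 CPM, without overlap. Injured minus uninjured was -2.26 on the log2 scale in tdTomato+ cells (plate pairs from -2.35 to -1.88) and -1.55 in tdTomato- cells (-1.95 to -1.12).

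*Foxs1*, the other mural forkhead gene, was at 164.4 CPM (160.4 to 168.5) in uninjured tdTomato+, 219.7 CPM (214.2 to 225.4) in uninjured tdTomato-, 54.03 CPM (51.5 to 56.7) in injured tdTomato+ and 147.7 CPM (143.1 to 152.5) in injured tdTomato- cells. The injured tdTomato+ group was low on both plates (56.2 and 16.7 CPM), and the lowest value of any other group on a plate was 114.9 CPM. The injury difference was -1.59 in tdTomato+ cells (-3.23 to -1.53) and -0.57 in tdTomato- cells. Per kilobase of exon, a scale that compares genes where reads over whole transcripts were counted, which is not known here, *Foxs1* was the highest of the 10 in all 4 groups, at 125.4, 167.6, 41.2 and 112.7 CPM per kb in the order given, and *Ebf1* followed in the uninjured groups at 48.3 and 55.05 CPM per kb.

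**Figure D1:**
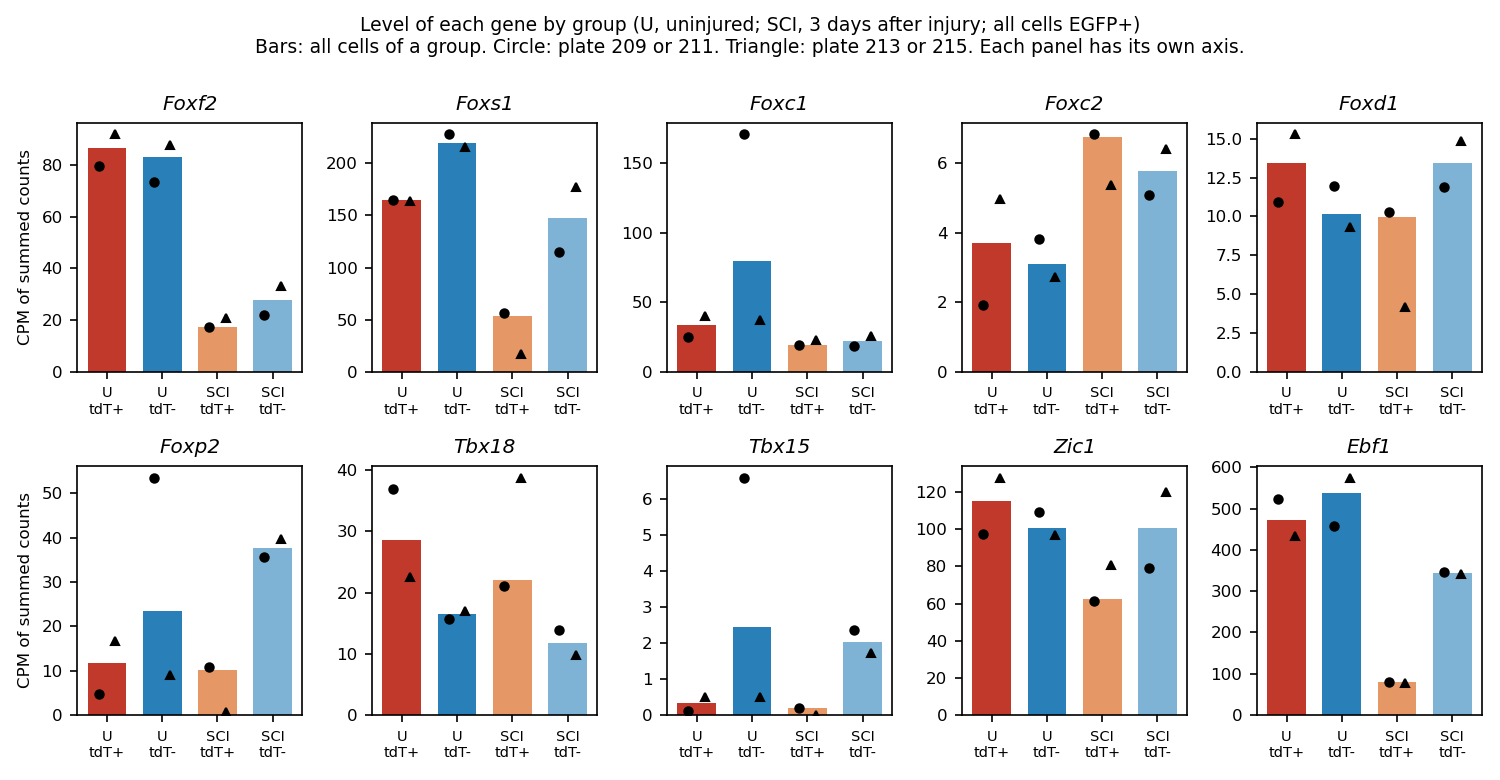
Level of each of the 10 genes in the 4 groups, in CPM of the summed counts of a group (bars) and of each plate (points), each panel with its own linear axis from 0. *Ebf1*, *Foxf2* and *Foxs1* have their lowest bar in injured tdTomato+ cells, and the circle of *Foxc1* at 170.7 CPM in uninjured tdTomato- cells stands apart from its triangle at 37.04 CPM.

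Among the genes with meningeal roles, *Zic1* was at 114.98, 100.8, 62.4 and 100.5 CPM in uninjured tdTomato+, uninjured tdTomato-, injured tdTomato+ and injured tdTomato- cells. Over plates the injured tdTomato+ values were 61.4 and 80.5 CPM, and the other groups ran from 78.9 to 127.7 CPM, so the ranges overlapped. Its injury difference of -0.87 in tdTomato+ cells (plate pairs from -1.05 to -0.27) did not reach the threshold of 1 used below, and in tdTomato- cells the difference was -0.00.

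*Foxc1* was at 33.9, 79.96, 19.4 and 22.3 CPM in the same order. A single cell carried much of the high value. A cell of plate 209 with 12589 counts in all held 1078 counts of *Foxc1*, 50.1% of the counts of this gene in the uninjured tdTomato- group. Without that cell the group was at 39.9 CPM, and its difference from injured tdTomato- cells, -1.80 with the cell, no longer passed the threshold.

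*Foxc2* and *Foxd1* were sparse. *Foxc2* was at 3.70, 3.09, 6.75 and 5.77 CPM. Over single plates the uninjured values of *Foxc2* ran from 1.93 to 4.97 CPM and the injured ones from 5.08 to 6.82 CPM, without overlap, although all lay under the 10 CPM required below. The injured tdTomato+ value on plate 215 rested on 9 counts. How many of all genes have plate ranges without overlap was not counted, for *Foxc2* or for the other genes described so. *Foxd1* stayed between 9.96 and 13.5 CPM. Its injured tdTomato+ plates, at 4.17 and 10.3 CPM, lay under both plates of uninjured tdTomato+ and of injured tdTomato- cells, and the other groups overlapped.

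*Foxp2* was at 11.7, 23.4, 10.2 and 37.7 CPM, and highest in injured tdTomato- cells, where both plates were alike (35.6 and 39.6 CPM). The uninjured tdTomato- plates were not, at 53.5 and 9.10 CPM, and 1 cell gave 44.7% of that group's counts. In injured tdTomato+ cells, plate 215 held a single count of the gene.

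*Tbx18* was higher in tdTomato+ than in tdTomato- cells on every plate. It was at 28.6 and 16.5 CPM in the uninjured groups, and at 22 and 11.7 CPM after injury. Over plates, tdTomato+ cells ranged from 21.05 to 38.8 CPM and tdTomato- cells from 9.82 to 16.9 CPM, without overlap. The log2 difference between the sorts was 0.76 in uninjured (1.19 and 0.40 on the 2 plates) and 0.85 in injured cells (0.57 and 1.88), under the threshold of 1. *Tbx15*, its relative, was at 0.338 and 0.193 CPM in the tdTomato+ groups and at 2.45 and 2.03 CPM in the tdTomato- groups, on 13, 6, 66 and 52 counts, and 1 cell gave 75.8% of the counts in uninjured tdTomato- cells.

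To count differences, a gene was called where the group sums differed by 1 or more in log2(CPM + 1), the sign was the same on both plates (sort) or in all 4 plate pairs (injury), and the higher group had 10 CPM or more. In every comparison 8 of the 10 genes reached that level, and *Foxc2* and *Tbx15* did not. Between the sorts in uninjured cord, 0 of the 10 were called higher and 0 lower in tdTomato+ cells, against 4.31% and 3.61% of the 11198 genes compared. Between the sorts after injury, 0 were called higher (4.31% of all genes) and 3 lower (17.9% of all genes): *Ebf1* by -2.08, *Foxp2* by -1.79 and *Foxs1* by -1.43, the last not under DESeq2 size factors (-0.92). *Tbx18* was called higher in tdTomato+ cells under 4 of 11 alternatives in uninjured and 6 of 11 in injured cells. For injury in tdTomato+ cells, 0 were higher (10.8% of all genes) and 3 lower (34.3% of all genes), namely *Ebf1*, *Foxf2* and *Foxs1*. For injury in tdTomato- cells, 0 were higher (9.52%) and 2 lower (17% of all genes), *Foxf2* and, through the single cell above, *Foxc1*. The share of lower calls, 3 of 10 in injured tdTomato+ cells, lay near the background.

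The median difference of the 10 genes was -0.07 between the sorts in uninjured cells, -0.66 between the sorts after injury, -0.59 for injury in tdTomato+ and -0.32 for injury in tdTomato- cells. Over all genes compared the medians were 0.01, -0.32, -0.59 and -0.20. These genes all reached 10 CPM, and the 8 members that did so had medians of -0.07, -0.66, -0.82 and -0.51. Scaling by TMM factors moved the all-gene injury median in tdTomato+ cells from -0.59 to 0.07, and DESeq2 size factors moved it to 0.20. *Ebf1* and *Foxf2* were called lower under every one of 13 alternatives, both scalings included, with *Ebf1* between -2.69 and -1.73 and *Foxf2* between -2.34 and -1.47, while *Foxs1* lost its call under both scalings, at -0.92 with TMM factors and -0.78 with DESeq2 size factors. The count of lower calls in this comparison was 5 without plate 209 and 5 without plate 211. It was 6 when every cell with *Pecam1*, an endothelial gene, above the limit of the cell filter was left out, which kept 33.6% of the uninjured and 98.4% of the injured tdTomato+ cells.

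**Figure D2:**
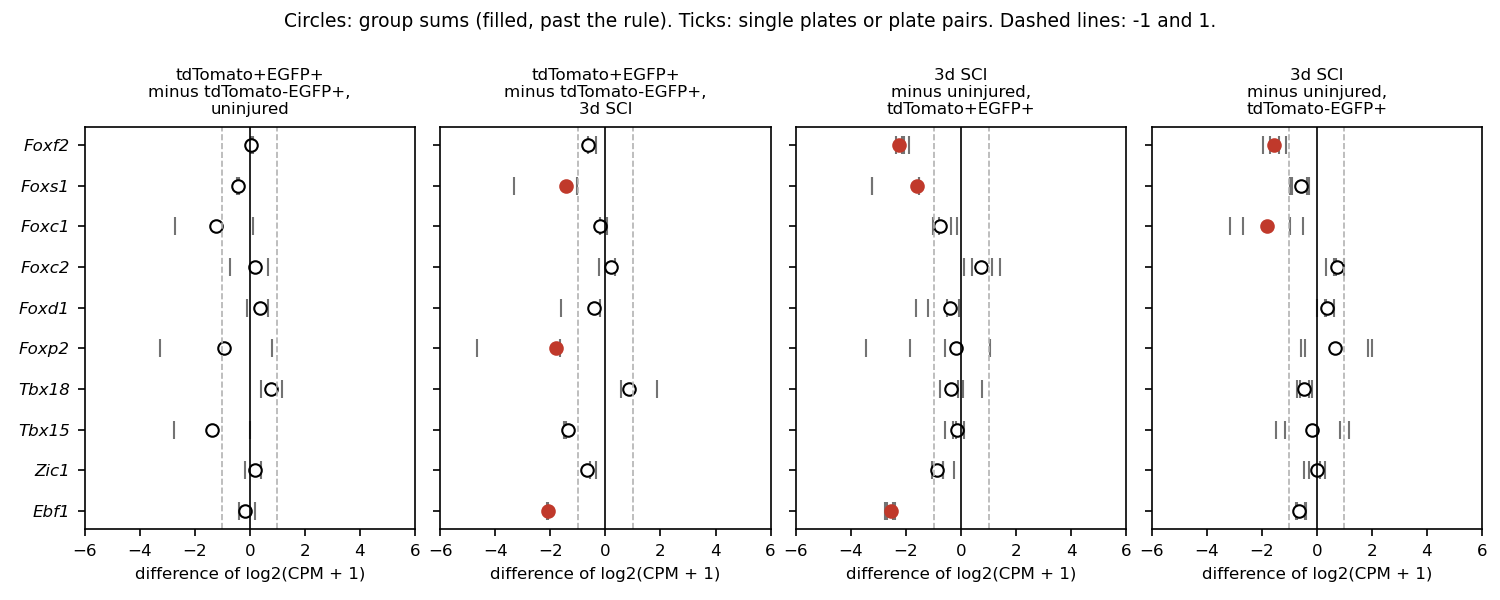
Difference of log2(CPM + 1) for the 10 genes in the 4 comparisons, with group sums as circles (filled where called) and the values on single plates, or in plate pairs for injury, as ticks. *Ebf1* is filled in both the injured sort comparison and the tdTomato+ injury comparison with its ticks close together, and *Foxf2* is filled in both injury comparisons.

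The injury differences of the 2 sorts were set against each other, without a test. The difference of *Ebf1* was further below 0 in tdTomato+ than in tdTomato- cells by -1.89 (plate pairs from -2.33 to -1.68). The same sign in all 4 pairs was seen for *Foxs1* (-1.02), *Zic1* (-0.87), *Foxd1* (-0.77) and *Foxf2* (-0.71), and the pairs disagreed in sign for *Foxc1*, *Foxc2*, *Foxp2*, *Tbx18* and *Tbx15*. How many of all genes keep the same sign in this way was not counted. By CPM the injury medians of all genes were themselves unlike, at -0.59 in tdTomato+ and -0.20 in tdTomato- cells. With TMM factors both were 0.07.

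After thinning each cell to 20000 counts, so that cells of unlike depth could be compared, the share of cells with a count was taken for each gene. *Ebf1* was counted in 89.8% and 95.7% of uninjured tdTomato+ and tdTomato- cells, and in 67% and 89.2% after injury. *Foxf2* was counted in 49.6%, 46.7%, 24% and 27.5%, and *Foxs1* in 68.5%, 72.8%, 41% and 61.8%. *Tbx18* was counted in 22.05% (exact 95% binomial interval 15.2 to 30.3) of uninjured tdTomato+ and 8.70% (3.83 to 16.4) of uninjured tdTomato- cells. After injury it was counted in 29% and 9.80%, so its shares were not lower. Its level was lower after injury in the group sums, but in tdTomato+ cells the plate pairs disagreed in sign (-0.78 to 0.75). *Zic1* had its lowest share, 51.1%, in uninjured tdTomato- cells, and its lowest level in injured tdTomato+ cells. The intervals cover counting error only, since cells of a group are no replicates. A thinned cell held a median of 4 of the 10 genes in both uninjured groups and of 3 in both injured groups, and no cell held more than 7.

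**Figure D3:**
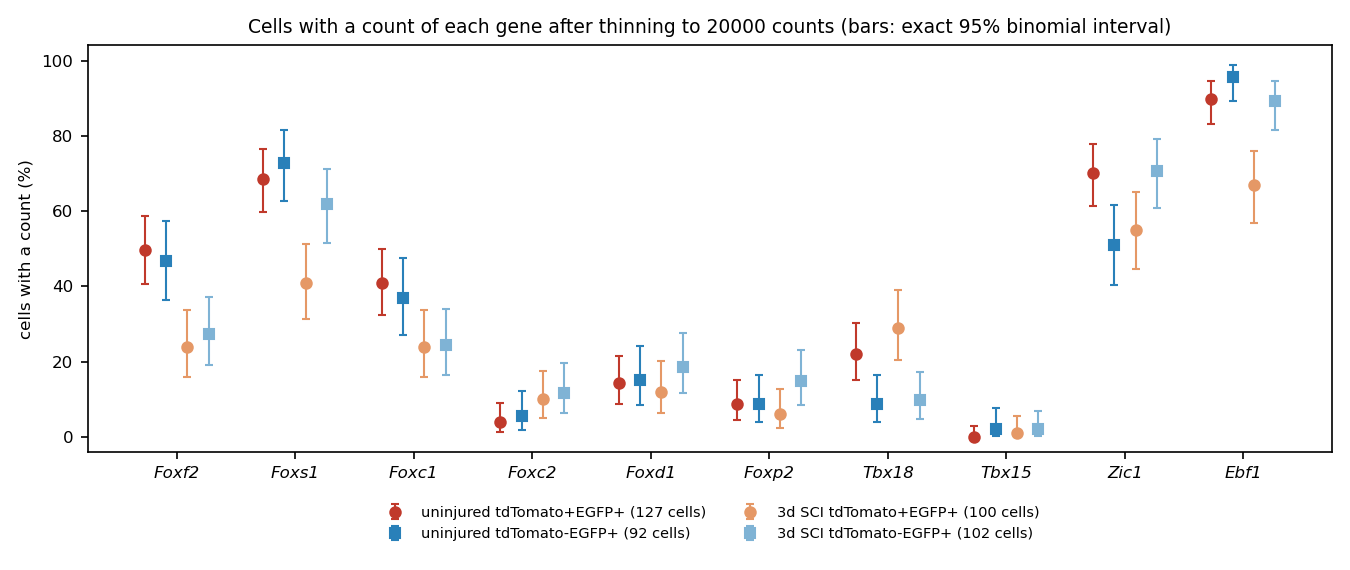
Percent of cells with a count of each gene after thinning to 20000 counts, by group, with exact 95% binomial intervals as bars. *Foxf2* and *Foxs1* have their lowest point in injured tdTomato+ cells, and *Tbx18* has both circles (tdTomato+) above both squares (tdTomato-).

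The 468 cells were clustered without the 10 genes and without the rest of their families, so none of them was used for the grouping. Of 7 clusters, cluster 3 (71 cells) was called fibroblast-like, with 8 of 8 perivascular fibroblast markers raised. Clusters 4 and 6 (48 and 32 cells) were called pericyte-like, with 6 and 9 of 9 pericyte markers raised, and cluster 7 (18 cells) vSMC-like, with 5 of 6 markers raised. Of the 48 cells of cluster 4, 47 came from injured tdTomato- cells, so the cluster may be that group rather than a cell type. Clusters 1, 2 and 5 are given by number. By the highest share of raised markers cluster 1 came out as cycling and cluster 5 as endothelial, while cluster 2 tied and had no name. Cluster 1 (10, 10, 100 and 17 cells of the 4 groups in the order above) raised all 6 cycling and 6 of 8 fibroblast markers. Cluster 2 (60, 50, 2 and 5 cells) raised all 9 pericyte and all 5 endothelial markers, and cluster 5 (45 cells) 5 of 5 endothelial and 6 of 9 pericyte markers. Only 1 of 6 leptomeningeal markers, *Slc6a13*, was raised in the fibroblast-like cluster, and no cluster was called meningeal. The summed level of the 6 was nevertheless highest there, at 1920 CPM against 39.3 to 672.2 CPM in the other clusters.

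*Ebf1*, *Foxs1* and *Foxf2* were higher in the pericyte-like cells, while *Tbx18*, introduced above as a mural marker, was lower there. *Ebf1* was at 585.5 CPM in the 80 pericyte-like and 223.8 CPM in the 71 fibroblast-like cells, *Foxs1* at 246.5 and 59.4 CPM, and *Foxf2* at 73.9 and 12.9 CPM. In the vSMC-like cluster *Foxs1* was at 450.4 CPM, its highest of the 7 clusters, but *Foxf2* at 28.6 CPM, so the 2 forkhead genes parted there. Other genes were higher in the fibroblast-like cells: *Foxp2* was at 96.4 CPM against 2.28 CPM in the pericyte-like cells, *Foxc2* at 16.7 against 1.06 CPM, *Tbx18* at 40.4 against 18.1 CPM and *Foxd1* at 25.9 against 12.9 CPM. The 2 pericyte-like clusters were unlike for *Foxd1*, with 6.10 CPM in cluster 4 and 22.1 CPM in cluster 6. Among uninjured cells *Foxd1* was lower in the fibroblast-like cluster than in cluster 6. It was at 20.3 against 23.9 CPM in tdTomato+ and 14.2 against 21.1 CPM in tdTomato- cells. *Zic1* differed least, at 137.5 and 116.1 CPM. *Foxc1* was at 43.9 and 24.5 CPM.

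Within the fibroblast-like cluster, *Ebf1* was at 230.0 CPM in the 26 uninjured and 162.3 CPM in the 18 injured tdTomato+ cells. The direction depended on the plate. Uninjured plate 213 (304.8 CPM) lay above injured plates 211 (166.9 CPM) and 215 (93.7 CPM), but uninjured plate 209 (75.9 CPM) lay below both. In cluster 1, where most injured tdTomato+ cells lay, *Ebf1* was at 61 CPM over 100 injured tdTomato+ cells. The 10 uninjured tdTomato+ cells there were too shallow to compare, with 1 count in all (10.97 CPM, exact interval 0.278 to 61.1). *Foxf2* was at 25.9 CPM in the uninjured and 3.82 CPM in the injured tdTomato+ cells of the fibroblast-like cluster, and at 118.4 CPM in uninjured tdTomato+ cells of pericyte-like cluster 6. The value of 3.82 CPM rested on 17 counts, 47.1% of them from 1 cell. *Foxf2* was counted in 8 of the 26 uninjured and 6 of the 18 injured cells. *Foxs1* went the other way in these cells, at 78.4 CPM in uninjured and 116.1 CPM in injured ones, where 1 cell gave 69.2% of its counts. In pericyte-like cluster 4, from injured tdTomato- cells, *Foxf2* was at 39.8 CPM and *Foxs1* at 233.9 CPM, against 122.9 and 322.1 CPM in the 13 uninjured tdTomato- cells of cluster 6. The 50 uninjured tdTomato- cells of cluster 2, which also raised all 9 pericyte markers, had *Foxf2* at 88.4 CPM and *Foxs1* at 200.6 CPM. For *Foxs1* the direction therefore depended on the uninjured cluster compared.

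**Figure D4:**
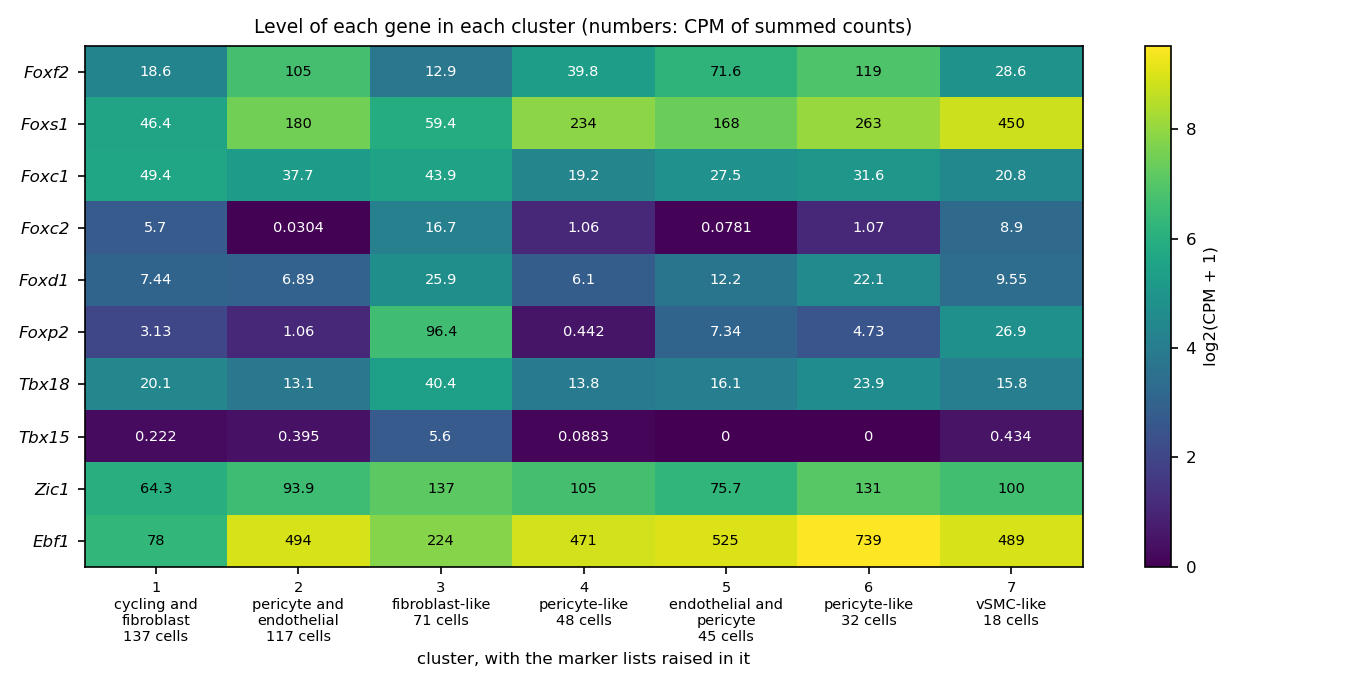
Level of each gene in the 7 clusters, as colour on the log2(CPM + 1) scale with the CPM of the summed counts written in each cell. *Foxp2*, *Foxc2*, *Foxd1* and *Tbx18* are highest in cluster 3 (fibroblast-like), and *Ebf1* and *Foxf2* in cluster 6 (pericyte-like).

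The T-box genes, where counted, divided the fibroblast-like cluster by sort, a pattern singled out after its values were seen and given without a test. *Tbx18* was counted in 32 of 44 tdTomato+ cells, in 19 of 26 uninjured and 13 of 18 injured cells, and in 0 of 27 tdTomato- cells, which allows a share of up to 11.1%. *Tbx15* went the other way: it was counted in 0 of 44 tdTomato+ cells, which allows a share of up to 6.82%, and in 13 of 27 tdTomato- cells, 5 of 8 uninjured and 8 of 19 injured. Not 1 of the 71 cells held both genes, while 12 of the 44 tdTomato+ and 14 of the 27 tdTomato- cells held neither. After thinning to 20000 counts, *Tbx18* was left in 19 of 42 tdTomato+ and 0 of 27 tdTomato- cells, and *Tbx15* in 0 of 42 and 4 of 27. The split was present on all 4 plates, with *Tbx18* in 8 of 10, 11 of 16, 11 of 14 and 2 of 4 tdTomato+ cells of plates 209, 213, 211 and 215. *Tbx18* was at 78.6 CPM in uninjured and 28.96 CPM in injured tdTomato+ cells, and *Tbx15* at 31.3 CPM in uninjured and 9.95 CPM in injured tdTomato- cells, where 1 uninjured cell gave 50 of the 64 counts. The plate ranges of uninjured and injured cells overlapped for both genes. They were 55.4 to 126.5 and 26.8 to 61.2 CPM for *Tbx18*, and 8.98 to 52.7 and 8.01 to 12.3 CPM for *Tbx15*.

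Other genes of the set also differed by sort in this cluster. *Foxs1* was counted in 18 of 44 tdTomato+ cells, though in 0 of the 4 from plate 215, and in 0 of 27 tdTomato- cells, and *Foxf2* in 14 of 44 and 3 of 27. *Foxp2* was in both sorts but higher in tdTomato- cells, in 24 of 27 cells at 183.3 CPM against 22 of 44 cells at 50.1 CPM, and 12 of the 13 cells with *Tbx15* also held *Foxp2*. *Foxc1*, *Foxd1*, *Zic1* and *Ebf1* were counted in both sorts, with *Zic1* at 134.02 and 143.9 CPM. *Slc1a3*, on whose promoter the sort rests, was counted in 43 of 44 and 8 of 27 of these cells, so a few tdTomato- cells had it. Median depth was 291822 counts in the tdTomato+ and 200328 counts in the tdTomato- cells of the cluster.

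The split was looked for under other clustering settings. Without regression the cluster had *Tbx18* in 29 of 40 against 0 of 27 cells and *Tbx15* in 0 of 40 against 12 of 27 cells. At a coarser resolution of 0.3, where the fibroblast-like cluster held 208 cells, *Tbx18* was counted in 63.6% of tdTomato+ and 12.96% of tdTomato- cells and *Tbx15* in 0.649% and 25.9%. Outside the fibroblast-like cluster *Tbx18* did not divide the sorts in this way, being counted in 44.2% of 215 tdTomato+ and 27.5% of 182 tdTomato- cells, at 17.1 and 16.4 CPM.

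**Figure D5:**
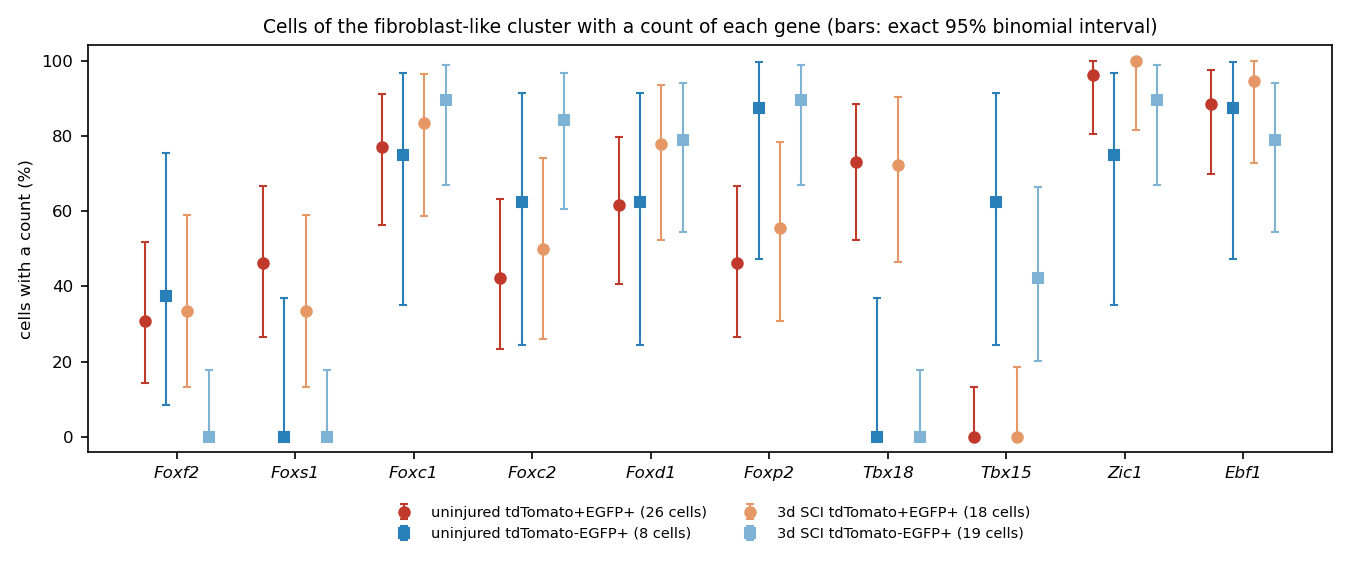
Percent of the cells of the fibroblast-like cluster with a count of each gene, by group, with exact 95% binomial intervals. *Tbx18* stands above 70% in both tdTomato+ groups and at 0% in both tdTomato- groups, and *Tbx15* stands at 0% in both tdTomato+ groups and at 62.5% and 42.1% in the tdTomato- groups.

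Genes whose pattern over cells was most like that of a member were named by Pearson correlation across 421 cells with 20000 or more counts, which share libraries, plates and depth. The closest to *Ebf1* were *Rgs5* (r = 0.72), *Esam* (0.71) and *Gucy1b1* (0.69), and to *Foxs1* they were *Cspg4* (0.59), *Notch3* (0.58) and *Cox4i2* (0.58). For *Foxf2* the closest was *Adgrf5* at 0.45 and for *Tbx18* *Col13a1* at 0.47. *Foxp2* and *Tbx15* had *Tspan11* as the closest gene (0.63 and 0.53), and *Foxc2* had *Igfbp6* (0.58). Next for *Foxp2*, also at 0.63, was *Slc47a1*, a gene of the leptomeningeal marker list. No gene was close to *Zic1* or *Foxc1*, whose best values were 0.29 and 0.28. Within the set *Foxs1* and *Ebf1* correlated at 0.44, *Foxc2* and *Foxp2* at 0.38 and *Foxp2* and *Tbx15* at 0.30, while the neighbours *Foxf2* and *Foxc1* correlated at 0.06.

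Other regulators were set beside the 10 genes by the same rule, and their counts are to be read against the shares of all genes: for injury, 34.3% lower and 10.8% higher in tdTomato+ and 17% lower and 9.52% higher in tdTomato- cells, and for the sorts, 3.61% lower and 4.31% higher in uninjured and 17.9% lower and 4.31% higher in injured cells. Of 14 mural regulators, 12 reached the level and 9 were called lower and 0 higher for injury in tdTomato+ cells, the 4 largest being *Mef2c* (6.17 against 126.6 CPM, -4.15), *Hey2* (-3.62), *Heyl* (-3.60) and *Hey1* (-3.50), where the Hey genes are targets of Notch signalling. In tdTomato- cells 5 of 13 were lower, including *Myocd* (-3.09), a coactivator of smooth muscle genes, and *Hey2* (-1.68). Of 23 fibroblast and meningeal regulators, 4 of 11 were higher and 1 lower in tdTomato+ cells, with *Runx1* (2.24), *Runx2* (2.03) and *Snai1* (1.502) the largest of the higher ones and *Lef1* (-2.75) lower. In tdTomato- cells 4 of 9 were higher and 2 lower, with *Runx1* (2.36), *Prrx1* (2.19), *Meox1* (-3.16) and *Lef1* (-2.19) the largest. Between the sorts, 2 of 13 mural regulators were lower in tdTomato+ cells of the uninjured cord and 9 of 12 after injury, with 0 higher in either. Of the fibroblast and meningeal regulators, 1 of 8 was higher and 1 lower in uninjured tdTomato+ cells, and 4 of 11 were higher and 0 lower after injury.

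Among the 57 other family genes, 20 reached the level for injury in each sort. In tdTomato+ cells 9 were called lower and 1 higher, among them *Tbx2* (-3.26) and *Tbx6* (-3.18) below and *Foxm1*, a regulator of mitosis, above (20.3 against 3.15 CPM, 2.36). In tdTomato- cells 4 were lower and 1 higher, with *Foxm1* at 21.4 against 0.521 CPM (3.88) and *Foxq1* at 2.14 against 11.9 CPM (-2.03). For the sorts after injury, 3 of 18 were lower, near the share of all genes, and 1 was higher, with *Tbx2* (-3.32) the lowest. In uninjured cells 0 of 19 passed in either direction.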

How the data were processed

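The table the authors deposited holds counts, as whole numbers not normalised, of each gene in each cell, made from Smart-seq3 libraries and, per the labels, referred to the mm10 build. The aligner, the counter, the release of the annotation, and the choice of reads or molecules as the thing counted are not given in the sources used here. Of 1968 cell columns, 503 matched the labels and 1465 were not used. The 92 ERCC spike-in rows name no gene and were left out. Cells with 200 or more genes, under 20% mitochondrial counts, *Gfap* and *Ptprc* at or under 1 on the ln(1 + counts per 10000) scale, and *Pecam1* not both above 1 and above *Pdgfrb* were kept, which left 468, with 34 removed by *Pecam1*. An upper limit of 1200 genes, stated in the methods of the study, was not applied, since it would keep 33. No doublet caller was run on these singly sorted cells.

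Counts were summed per group and per plate, scaled to CPM and compared as log2(CPM + 1), a scale that understates the change of genes near 1 CPM. Levels carry exact Poisson and shares exact binomial 95% intervals, both covering counting error only, and a share of 0 is limited by 3 counts. Cells were clustered in Seurat 5.3.0 (R 4.3.3), with 0.5 on the log2 scale and detection in 50% of a cluster's cells as the least for a raised marker. TMM factors came from edgeR 4.0.16 and size factors from DESeq2 1.42.0, as alternatives. Other values came from Python 3.11.15. The labels give 3 days after injury where the series description gives 5, and the labels were followed. The genes named are the 10 members, for each member up to 3 genes of the highest correlation, and at most the 4 largest called genes per list and comparison. One result among the family genes is not reported here. The members, lists and thresholds were chosen with earlier results of these data known.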

Additional observations from a re-analysis of the deposited data

Results flagged for a closer look

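Spike-in RNA (ERCC), which belongs to no gene and enters no comparison, made up 0.0984% of the counts on plate 211, in every cell of that plate, and had 0 counts in every cell of the other 3 plates.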

How the results depend on the processing

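Counts of called members were recomputed under 11 alternatives for each sort comparison and 13 for each injury comparison, and no called difference changed sign. For the sorts in uninjured cells, 1 member was higher (*Tbx18*) without cells of *Pecam1* above 1, with CPM averaged over cells, with thinned cells and without plate 213. There, 1 was lower (*Tbx15*) with no minimum level, and 2 (*Foxc1*, *Foxp2*) without plate 213. For the sorts after injury, 1 was higher (*Tbx18*) with TMM factors, with DESeq2 size factors, without cells of *Pecam1* above 1, with CPM averaged over cells, with thinned cells and without plate 211. For injury in tdTomato+ cells, 6 were lower without cells of *Pecam1* above 1, 5 without plate 209 and 5 without plate 211. For injury in tdTomato- cells, 1 was higher (*Foxp2*) with the top cell of each gene left out and without plate 209, and 1 was lower in both (*Foxf2*), and 1 (*Foxc1*) without cells of *Pecam1* above 1. The cause of these changes was not tested, apart from the *Foxc1* cell described above. In all, 76 of the recomputed counts stayed within 1.5 times the value reported and 20 did not. *Ebf1* in both of its comparisons and *Foxf2* in tdTomato+ cells were called under every alternative, and *Foxf2* in tdTomato- cells under 12 of 13. No paired analysis was possible because no result comes from a test and the replicate numbers only name cells. The sorts were compared within each plate, and those differences are part of the call rule. Depth limits the shallow tdTomato+ cells of plate 215 most, where 21 of 34 held under 20000 counts.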
